A study of Homo sapiens with 3 samples.

Results

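The collagen-high HS-5 cells were the 361 cells with the highest collagen score among 1802 scored cells of the HS-5 monoculture, a library of 3865 cell barcodes in a series of 11822. They were chosen by measured values: the score of a cell was the share of its unique molecular identifiers (UMIs) on COL1A1, COL1A2, COL6A1, COL6A2, COL16A1, SERPINE2 and KCNMA1, and the top 20% of the cells with at least 1000 UMIs were taken. The 361 cells of the bottom 20%, called collagen-low here, served as the comparison, and 1080 cells lay between. HS-5 is an established stromal line from bone marrow, and MM.1S is an established multiple myeloma line. The study profiled both lines by Drop-seq, in which a cell shares a droplet with a barcoded bead, in independent untreated cultures and after a 4 h coculture, with 1 library for each of these 3 conditions. No comparison below therefore has a replicate check, no test was made, and every 95% interval covers counting error only.

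Fibrillar type I collagen, built from the COL1A1 and COL1A2 chains, gives the extracellular matrix its tensile strength. Type VI collagen, which contains the COL6A1 and COL6A2 chains, forms beaded microfilaments near the cell surface, and COL16A1 encodes a collagen associated with fibrils. Procollagen chains are hydroxylated and folded in the endoplasmic reticulum, secreted, trimmed by proteases and cross-linked by lysyl oxidases. Stromal cells of the bone marrow are known both for this matrix and for secreted cytokines that act on blood cells. SERPINE2 encodes a secreted inhibitor of thrombin and other serine proteases, and KCNMA1 encodes the pore-forming subunit of a calcium-activated potassium channel.

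The score ran from 0 to 2.20%, with a median of 0.376% over all scored cells. Collagen-high cells had a median score of 0.769%, from 0.606 to 2.20%, and collagen-low cells one of 0.152%, from 0 to 0.204%. The last cell inside the upper threshold had 0.6064% and the first outside it 0.6062%, and at the lower threshold these values were 0.2038% and 0.2047%. No gap at either threshold set the collagen-high or the collagen-low cells apart from the cells between.

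Among the 7 genes, which describe the choice and test nothing, SERPINE2 was at 2095 counts per 1000000 UMIs (CPM) in collagen-high cells, 793 in the cells between and 290 in collagen-low cells. COL6A1 had 1433, 662 and 263 CPM in the same order, and KCNMA1 had 1231, 666 and 293 CPM. COL1A1 was at 1071, 467 and 164 CPM and COL1A2 at 1035, 407 and 137 CPM. COL6A2 and COL16A1 completed the set, with 990 against 190 CPM and 318 against 67.8 CPM in collagen-high and collagen-low cells. MM.1S cells of the monoculture had 0.965 to 4.05 CPM of 6 of the 7 genes and 36.1 CPM of SERPINE2. MM.1S cells of the coculture, where each gene rests on few UMIs, had 1.75 to 8.75 CPM of the same 6 and 42.0 CPM of SERPINE2. The collagen-low cells stood above both levels for each gene. Whether the MM.1S counts are low expression or stray transcripts was not tested.

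**Figure D1:**
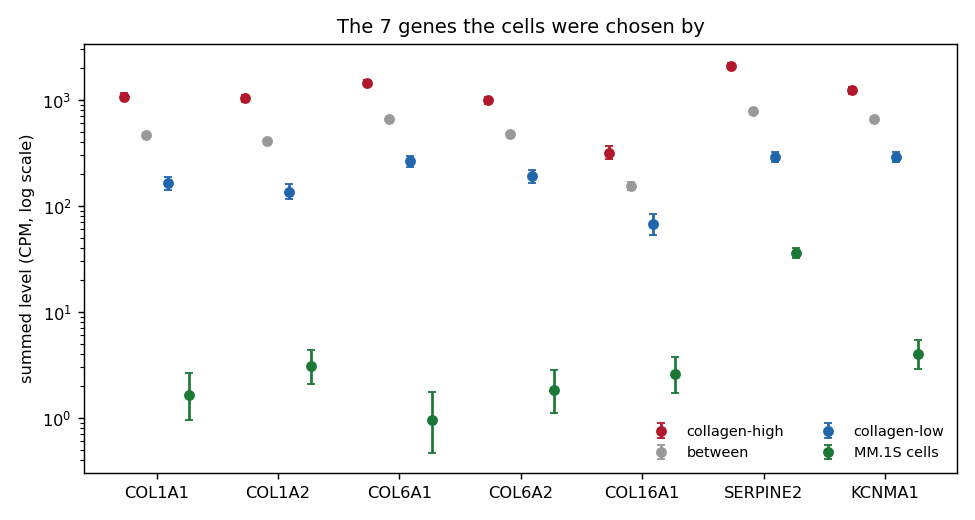
Summed level in CPM (y axis, log scale) of the 7 genes used in the choice of the cells (x axis), with exact 95% Poisson intervals, in collagen-high, between and collagen-low HS-5 cells and in MM.1S monoculture cells. For each gene the collagen-high cells stand highest by construction, and the collagen-low cells remain above the MM.1S cells.

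In most collagen-high cells, no single gene held the majority of the score UMIs. A collagen-high cell had UMIs of a median of 5 of the 7 genes, against 2 in collagen-low cells, and 92.5% of them had at least 4. SERPINE2 was the gene with the most score UMIs, alone or tied, in 40.7% of the collagen-high cells, COL6A1 in 26.6% and KCNMA1 in 23.3%. SERPINE2 outnumbered all other score genes together in 38 collagen-high cells, KCNMA1 in 15, COL1A2 and COL6A1 in 4 each and COL6A2 in 1. These counts were read on the UMIs that chose the cells. With every cell thinned to 1000 UMIs, 64.8% of collagen-high cells had a COL1A1 UMI, against 13.6% of collagen-low cells and 0.129% of MM.1S cells, whose median depth before thinning was 2230 UMIs. The pairwise Pearson correlations of the 7 genes over the thinned cells were weak, from -0.01 to 0.18 with a median of 0.048 over 21 pairs. Of the 21, 20 were above 0. The part of sparse counts in these values was not tested.

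To read each gene where it had not been used, cells were chosen again on the other 6. COL1A2 then differed by a log2 ratio of collagen-high over collagen-low cells of 1.94 (1.73 to 2.16), COL1A1 by 1.73 (1.53 to 1.94) and COL16A1 by 1.37 (1.03 to 1.73). COL6A1 followed with 1.36 and COL6A2 with 1.28, and the genes that encode no collagen came last, SERPINE2 with 1.08 (0.94 to 1.22) and KCNMA1 with 0.64 (0.48 to 0.81). The intervals of both type I chains lay above that of SERPINE2, and the interval of KCNMA1 lay below those of all other genes. The order differed in HS-5 cells of the coculture, chosen as described below. There SERPINE2 was at 1.35 (1.11 to 1.61), above COL6A2 (1.11), COL6A1 (1.08) and COL16A1 (1.03). COL1A2 (1.86) and COL1A1 (1.37) were higher, and KCNMA1 (0.64) was again last. Cells chosen on the 5 collagen chains alone had 1319 CPM of SERPINE2 in the top 20% and 617 CPM in the bottom 20%. Cells chosen on COL6A1 and COL6A2 had 1471 and 594 CPM of COL1A1 and COL1A2 together. When the UMIs of each cell were divided at random and one portion chose the cells, the other portion held the 7 genes at 6343 CPM in the top and 2227 CPM in the bottom cells, a log2 ratio of 1.51 (1.41 to 1.61), against 2.54 when all UMIs both chose the cells and were read. In that other portion SERPINE2 (2.04) and COL1A2 (2.02) were highest and COL16A1 (1.00) lowest, but each gene had a part in the choice of the cells.

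The 7 genes lie on 6 chromosomes of GRCh38.p14, and only COL6A1 (chromosome 21, 45981770 to 46005048) and COL6A2 (chromosome 21, 46098112 to 46132848) are neighbours. RefSeq start-site sequences were found for 4 of the 7 genes and for 135 of the 171 genes described below as higher in collagen-high cells. The bases directly before the start site are shown 5′ to 3′ for COL6A2, for a SERPINE2 start site that lies inside the gene as annotated, and for COL7A1 and TGFBI, which were among the genes of highest ratio. Capitals mark TATAAA and GGGCGG, the latter the core of the GC box, in COL6A2, COL7A1 and TGFBI, and CCAAT in SERPINE2, each on either strand.
COL6A2, chr21:46098012-46098111, plus strand: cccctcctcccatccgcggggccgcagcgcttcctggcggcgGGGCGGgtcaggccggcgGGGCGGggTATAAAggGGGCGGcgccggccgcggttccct
COL7A1, chr3:48595330-48595429, minus strand: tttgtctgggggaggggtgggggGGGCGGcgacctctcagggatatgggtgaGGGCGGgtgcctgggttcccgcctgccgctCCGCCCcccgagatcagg
TGFBI, chr5:136028888-136028987, plus strand: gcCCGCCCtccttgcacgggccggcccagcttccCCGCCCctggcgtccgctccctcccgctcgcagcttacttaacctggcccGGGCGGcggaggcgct
SERPINE2, chr2:224031479-224031728, minus strand: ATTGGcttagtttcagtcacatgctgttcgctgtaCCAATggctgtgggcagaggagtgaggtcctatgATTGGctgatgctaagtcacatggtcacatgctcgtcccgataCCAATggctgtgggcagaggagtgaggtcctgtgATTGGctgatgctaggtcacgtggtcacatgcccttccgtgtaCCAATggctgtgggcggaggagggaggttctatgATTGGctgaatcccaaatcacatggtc
COL6A2, COL7A1 and TGFBI each held 3 copies of GGGCGG within 100 bases, and COL6A2 also held 1 TATAAA. Among other sequences read over 100 bases, GAS6 held 3 copies of GGGCGG, THBS1 1, WNT5A 0 before both starts and KCNMA1 2 and 0. COL16A1 held 2 within 200 bases. The SERPINE2 stretch held 7 copies of CCAAT within 250 bases, against 0 before the other SERPINE2 start. Over the 250 bases before the start, GGGCGG was present in 64.6% of 212 sequences of the higher genes and in 66.2% of 331 sequences of the lower genes, against 42.6% of all 35116 sequences. TATAAA was present in 6.60%, 7.25% and 10.7% and CCAAT in 34.0%, 37.2% and 32.0% of the same sets. Higher and lower genes thus had much the same shares, and a match describes letters and not a working site.

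For all other genes, UMIs were summed over the cells of each group, without the 7 score genes, and compared as log2 ratios with a pseudocount of 1 CPM. Of 2034 genes whose mean level reached 100 CPM, 171 (8.41%) were at least 1.5-fold higher and 322 (15.8%) at least 1.5-fold lower in collagen-high cells. The counting interval excluded 0 for all of them, and their level in the cells between lay between the others in every case. Depth moved with the groups: the median was 1450 UMIs in collagen-high, 1864 in between and 1743 in collagen-low cells. The 54 collagen-low cells with over 3 times the median UMIs of scored cells held 47.9% of the collagen-low UMIs, while 6 such collagen-high cells held 6.09%. Without these deep cells, a comparison added after the data were seen, 62 genes were higher and 82 lower, of which 53 and 58 were among those above, and none changed direction past 1.5-fold. Of 94 named genes past 1.5-fold, 34 were no longer past it without deep cells and 47 were not when each cell was thinned to 1000 UMIs before it was scored. In the thinned setting, ties in the score widened the groups to 483 and 534 cells, so its values do not show the effect of depth alone. The sum without deep cells is therefore given beside each gene list. The minimum on the mean of both groups admitted 139 genes that were under it in collagen-low cells and 160 that were under it in collagen-high cells. With the minimum set on the cells between, which entered neither group, 168 of 2028 genes were higher and 317 lower, and the counts of list members given below use that minimum, while the members named were chosen on the mean.

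Among the genes of at least 100 CPM, COL7A1 had the highest ratio. COL7A1, the chain of the anchoring fibrils under epithelia, had 451 CPM (400 to 505) in collagen-high, 289 in between and 150 CPM (128 to 174) in collagen-low cells, a log2 ratio of 1.58 (1.31 to 1.87). With thinned cells, 33.8% of collagen-high and 15.8% of collagen-low cells had a COL7A1 UMI. WNT5A, a Wnt ligand that acts mainly outside the β-catenin route, had 921 and 317 CPM (log2 1.54), and 52.9% and 29.9% of the cells had its UMI. THBS1, the matricellular glycoprotein thrombospondin, followed with 944 and 326 CPM (1.53). PLAT, which encodes tissue plasminogen activator, had 1.56, and GAS6, a ligand of TAM receptors, had 1.53. TGFBI, an adhesion protein induced by TGF-β, had 1.44, with a UMI in 27.1% and 11.4% of the thinned cells. The others were LOXL2 (1.43), the RNA-binding protein BICC1 (1.42), the calcineurin inhibitor RCAN1 (1.39), TNIP1 (1.33), the proteoglycan SDC1 (1.31), the thrombin receptor F2R (1.22), the sulfhydryl oxidase QSOX1 (1.21) and RRBP1 (1.13), a ribosome-binding protein of the endoplasmic reticulum. Without deep cells, all of these genes stayed above 0, with RRBP1 the lowest at 0.76. With thinned cells, THBS1 was at 0.70, and BICC1 (0.51), F2R (0.53) and RRBP1 (0.55) were no longer past 1.5-fold. PLAT (78.5 CPM), GAS6 (94.4) and BICC1 (82.1) were under 100 CPM in the cells between. They met the minimum on the mean only through the collagen-high cells.

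Collagen chains outside the score were higher as a group. Of 34 chains, 4 reached 50 CPM in the cells between, the minimum for list members, and 3 of these 4 were at least 1.5-fold higher. Over all 3745 genes whose mean level reached 50 CPM, 10.6% were higher and 15% lower, and of 3732 genes that reached it in the cells between, 375 were higher and 569 lower. Summed, the chains had 1045 CPM (967 to 1126) in collagen-high and 482 CPM (442 to 524) in collagen-low cells, a log2 ratio of 1.12 (0.95 to 1.28) and of 0.75 without deep cells. Beside COL7A1, COL5A1, a chain that regulates fibril diameter, had 89.5 and 22.1 CPM (log2 1.97, 1.32 to 2.76). COL27A1 had 145 and 77.6 CPM (0.89). COL12A1, a fibril-associated collagen, had 60.2 and 47.6 CPM (0.33, -0.30 to 0.96), an interval that includes 0.

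Genes for collagen synthesis and cross-linking summed to 2660 and 1799 CPM, a log2 ratio of 0.56 (0.47 to 0.66) and of 0.46 without deep cells. Of 13 members that reached 50 CPM, 6 were higher and 1 lower, with a median of 0.54. PCOLCE, which speeds the removal of the C-propeptide, had 140 and 48.5 CPM (log2 1.51). LOXL2, a lysyl oxidase that cross-links collagen, had 211 and 77.6 CPM. SERPINH1, the collagen chaperone HSP47, had 190 and 102 CPM (0.88, 0.51 to 1.27). These genes were named because they had the highest ratios of the list, so their shared direction follows from that choice. At the other end, TMEM38B, an endoplasmic reticulum cation channel, was at -0.68, and at -0.09 without deep cells. MIA3, which loads procollagen into transport carriers, was at 0.12 and the prolyl isomerase FKBP14 at 0.21, both with intervals that include 0.

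Matrix glycoproteins and proteoglycans were also higher as a group. All 14 members that reached 50 CPM, of 47 listed, had positive ratios, and 12 were at least 1.5-fold higher, with a median of 0.87. Their sum was 6159 CPM (5969 to 6353) in collagen-high and 3288 CPM (3183 to 3395) in collagen-low cells, a log2 ratio of 0.91 (0.84 to 0.97) and of 0.70 without deep cells. LTBP2, a microfibril-associated relative of the proteins that bind latent TGF-β, had 108 and 34.4 CPM (1.62). The lowest members were LTBP1 (0.49), SRPX (0.55) and FSTL1 (0.59). Fibronectin, FN1, named after its values were seen, had 370 and 172 CPM (1.10).

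Laminins and basement membrane genes summed to a log2 ratio of 0.53 (0.36 to 0.70), with 3 of 4 members higher. The value moved with the setting, to 0.35 without deep cells. It was -0.02 when each cell was thinned to 1000 UMIs before it was scored, which also widened the groups. LAMB1 was at 0.89, LAMC1 at 0.80 and LAMB3 at 0.73, while LAMA4 (0.06) and NID1 (0.14) had intervals that include 0. Integrins and other collagen receptors summed to 0.31 (0.21 to 0.42), and to 0.25 without deep cells and 0.12 with thinned cells, with 4 of 8 members higher. MRC2, an endocytic collagen receptor, had 108, 60.6 and 36.2 CPM in collagen-high, between and collagen-low cells (1.55). ITGA5, the α subunit of the fibronectin receptor, had 157 and 87.4 CPM (0.84). Its partner ITGB1 was at -0.33 (-0.56 to -0.09), and at 0.20 without deep cells.

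Matrix proteases and their inhibitors were mixed, with a sum near 0 and a median member at 0.47. Their sum was 23125 and 22078 CPM, a log2 ratio of 0.07 (0.04 to 0.10) and of -0.09 without deep cells, and 6 of 19 members were higher and 2 lower. HTRA1, a secreted serine protease, had 122, 51.3 and 26.5 CPM in collagen-high, between and collagen-low cells (2.16, 1.58 to 2.86), and a ratio of 2.10 without deep cells. MMP3, stromelysin, went the other way with 2398 and 3630 CPM (-0.60, -0.68 to -0.51), and 70.9% and 84.8% of the thinned cells had its UMI. SERPINB2 was at -0.60 and the urokinase receptor PLAUR at -0.44. The list thus held members on both sides, HTRA1 and PLAT above 0 and MMP3 below it.

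TGF-β ligands, receptors and targets, which include LTBP2 from the list above, summed to 4864 and 2886 CPM, a log2 ratio of 0.75 (0.68 to 0.82) and of 0.53 without deep cells. Of 7 members that reached 50 CPM, all were above 0 and 4 were at least 1.5-fold higher. ID1, a target of the BMP branch, was at 0.94, and at 0.08 with thinned cells. INHBA, the activin A subunit, had 1375 and 938 CPM (0.55), whereas the feedback genes SMURF2 (0.09) and SKIL (0.11) had intervals that include 0. Actin and contractile genes summed to 0.29 (0.25 to 0.32) and to 0.19 without deep cells, with 8 of 24 members higher and 3 lower. TPM1, a tropomyosin, had 849 and 403 CPM (1.07), and MYL9, a myosin light chain, had 74.1 and 30.9 CPM (1.24). MYL9 was at 46.7 CPM in the cells between, under the 50 CPM minimum, and is not counted among these members. MYL12A (-0.98), CNN3 (-0.93) and PFN1 (-0.64) were lower, but without deep cells MYL12A was at -0.51 and PFN1 at -0.05, and CNN3 was at -0.39 with thinned cells.

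The inflammatory secretome was mixed. Summed, it had 8614 and 7264 CPM, a log2 ratio of 0.25 (0.20 to 0.30), 0.19 without deep cells and 0.10 on the UMIs that did not choose the cells. Of 16 members, 5 were higher, 2 lower and 9 neither. CSF3, the granulocyte growth factor, had 1218 and 569 CPM (1.10), PTGS2, an inducible prostaglandin synthase, 258 and 124 CPM (1.05) and IL6 1785 and 921 CPM (0.95, 0.83 to 1.08). A UMI of IL6 was found in 60.4% of collagen-high and 46.3% of collagen-low thinned cells. CXCL3 had 250 and 492 CPM (-0.97) and CSF2 150 and 268 CPM (-0.84), and IL32 was at -0.49. Without deep cells, PTGS2 was at 0.97, IL6 at 0.78, CSF3 at 0.56, CXCL3 at -0.69 and CSF2 at -0.39, and CXCL3 was at -0.31 with thinned cells. In the coculture, CSF2 was at 1.27 (-0.35 to 3.24), an interval that includes 0.

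NF-κB pathway and feedback genes had a sum whose interval includes 0 (log2 0.03, -0.07 to 0.13), and it was 0.21 without deep cells. TNIP1, an inhibitor of the pathway, was the only 1 of 6 members that was higher, with 256 and 101 CPM, and BIRC2 was the only lower one (-0.62). NFKBIA was at 0.30, NFKBIZ at 0.14 and NFKB1 at 0.10, with intervals that include 0, and SOD2 was at -0.17. Interferon response genes summed to -0.33 (-0.41 to -0.25) but to 0.09 without deep cells. IFIT3 was at 1.07 with a UMI in 3.32% and 1.11% of the thinned cells, BST2 at 0.76 and HLA-B at 0.67, whereas B2M (-0.82), IFITM3 (-0.76) and ISG20 (-0.71) were lower. In the cells between, IFIT3 was at 38.4 CPM, under the 50 CPM minimum. Without deep cells, B2M was at -0.18, IFITM3 at -0.17 and ISG20 at 0.020, none of them past 1.5-fold.

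Mitotic genes were lower in collagen-high cells. Of 43 mitosis and G2/M genes that reached 50 CPM, 0 were higher and 18 lower, and the sum was 13028 and 16794 CPM, a log2 ratio of -0.37 (-0.40 to -0.33) and of -0.55 without deep cells. The sum was at -0.19 on UMIs that did not choose the cells and at -0.18 with only the collagen chains scored. CDKN3, a phosphatase of cyclin-dependent kinases that is not in this list, had the lowest ratio of the 2034 genes, with 33.9 CPM (21.3 to 51.4) in collagen-high and 260 CPM (231 to 292) in collagen-low cells (-2.90, -3.63 to -2.31). PTTG1, securin, had 199 and 581 CPM (-1.54), with a UMI in 13.3% and 29.4% of the thinned cells. CDKN3 was at -2.10 without deep cells and at -1.19 with thinned cells. CKS1B and CCNB2 were both at -1.35, and at -0.45 and -1.48 with thinned cells. CENPF (0.11), CDC20 (0.18) and KIF20B (0.09) were the 3 highest members, and CENPF was at -0.38 without deep cells. DNA replication and S phase genes pointed the other way: 8 of 27 members were higher and 1 was lower, the primase subunit gene PRIM1 (-0.76), named after its values were seen, with a sum of 0.32 (0.26 to 0.39) and of 0.17 without deep cells. The MCM helicase genes led them, with 0.92 for MCM7, 0.79 for MCM10, which encodes a helicase cofactor, and 0.79 for MCM6, while GINS2, RPA2 and RFC2 had intervals that include 0. MCM7 was at 0.41 without deep cells, and MCM10 at 0.44 with thinned cells and at -0.58 (-1.80 to 0.52) in the coculture. Without the 25% of cells with the largest share of cell cycle UMIs, the other collagen chains were still at 1.15 and the matrix glycoproteins at 0.91.

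The remaining genes of lowest ratio were mixed, with several for proteins of mitochondria, ribosomes and the secretory pathway and others outside these groups. MDH1, cytosolic malate dehydrogenase, had 89.5 and 358 CPM (-1.99), CNIH4, an export receptor of the endoplasmic reticulum, 86.4 and 337 CPM (-1.95), and CENPW, a kinetochore protein, 50.9 and 191 CPM (-1.88). NDUFB3 (-1.82), NDUFA12 (-1.59) and UQCR10 (-1.54) encode respiratory chain subunits, HSPE1 (-1.71) the mitochondrial co-chaperonin, and MRPL18 (-1.53) a mitochondrial ribosomal protein. OST4 (-1.64) belongs to the oligosaccharyltransferase, H2AFZ (-1.58) is a histone variant, NOP10 (-1.49) belongs to the snoRNPs, and RPS18 (-1.51) is a ribosomal protein gene with near-identical copies elsewhere in the genome, so that its counts are uncertain. Several of these values depended on the deep cells. Without them, MDH1 was at -0.86, CNIH4 at -0.82, UQCR10 at -0.58 and NDUFA12 at -0.47, while SNAPC1, a subunit of the small nuclear RNA activating complex, moved from -1.51 to -1.65. With thinned cells, CENPW was at -0.46 and OST4 at -0.47, no longer past 1.5-fold. OST4 was at 89.4 CPM in the cells between, under the 100 CPM minimum.

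Cytosolic ribosomal protein genes summed to -0.20 (-0.21 to -0.18), with 0 of 71 higher and 17 lower, but to -0.03 without deep cells. RPS9 (0.48), RPL39 (0.32) and RPL39L (0.31) were their highest members and RPL26L1 (-1.42) and RPS15A (-1.38) followed RPS18 at the low end, and reads of these families may be shared with copies. Mitochondrially encoded genes had 6208 and 8572 CPM (-0.47, and -0.11 without deep cells), led downwards by MT-ND4L (-1.33), MT-ATP6 (-0.99) and MT-CO1 (-0.90), while MT-ND3, MT-ND6 and MT-ATP8 had intervals that include 0. The median mitochondrial share per cell was 2.51% in collagen-high and 2.34% in collagen-low cells. It is a different measure from the summed level of these genes and cannot be set against it. Of 5 nuclear long non-coding RNAs, 3 were higher, and the list had 30040 and 17029 CPM in sum and a log2 ratio of 0.82, or 0.43 without deep cells. MALAT1 made up most of this, with 28584 and 16035 CPM, followed by NEAT1 (0.75), MEG3 (0.92) and KCNQ1OT1 (0.70), while NORAD (0.13) and OIP5-AS1 (-0.21) had intervals that include 0. MEG3, at 37.4 CPM in the cells between, was under the 50 CPM minimum and is not among the 5.

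Endoplasmic reticulum folding genes were split, with 3 of 27 higher and 4 lower and a sum of 0.09 (0.05 to 0.14), or 0.22 without deep cells. CRELD2 (0.87), PDIA4 (0.73) and SEL1L (0.71) stood highest, and the stress factor DDIT3 (-1.76) and the signal peptidase subunits SPCS1 (-1.21) and SPCS2 (-1.10) lowest. SEL1L (45.0 CPM) and DDIT3 (48.7 CPM) were under the 50 CPM minimum in the cells between. Without deep cells, SPCS1 was at -0.29 and SPCS2 at -0.22, and SPCS2 was at 0.49 in the coculture. Glycolysis and hypoxia genes summed to 0.29 and to 0.19 without deep cells, with VEGFA (1.09) and the lactate exporter SLC16A3 (0.90, and 0.45 without deep cells) as the 2 of 15 that were higher. TPI1 was at 0.43, and BNIP3L, BNIP3 and LDHA had intervals that include 0. Amino acid genes summed to -0.06 (-0.15 to 0.03) and to -0.15 without deep cells, with SLC1A5 (0.67) as the 1 of 10 that was higher and the cystine transporter gene SLC7A11 (-0.65, -1.44 to 0.06), named after its values were seen, as the 1 that was lower. Immediate early and stress genes were at 0.22 in sum and at -0.14 without deep cells, with KLF2 (1.05) and JUND (0.89) higher and GADD45B (-1.27) and GADD45A (-0.65) lower. Without deep cells, KLF2 was at 0.49 and JUND at 0.39.

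Few markers of other cells reached 50 CPM. Stromal markers of HS-5 summed to 0.15 (0.11 to 0.19) and to 0.25 without deep cells, 10 of 12 members lay above 0, and ANPEP (0.72) and CAV1 (0.58) followed TGFBI, while LGALS1 (-0.43), MME (-0.29) and AXL (0.01) were lowest. Of 22 plasma cell markers, only SDC1 and CCND2 reached 50 CPM. SDC1, which HS-5 cells had at 213 and 85.6 CPM against 38.1 CPM in MM.1S cells, set the list's sum of 0.56 (0.42 without deep cells), and CCND2 was at -0.03. The 48 genes specific to MM.1S had 110 CPM in collagen-high and 107 CPM in collagen-low cells, which is nearly the same level in both. Osteolineage markers had 122 and 115 CPM, a ratio of 0.09 (-0.33 to 0.50) that was -0.30 without deep cells, with BMP2 at -0.65 as the 1 member over 50 CPM. Adipocyte markers had 284 and 353 CPM, a ratio of -0.31 that was -0.0011 without deep cells and 0.22 with thinned cells. LPIN1 was at 0.07, and PLIN2 was at -0.54, at -0.17 without deep cells and at 0.20 with thinned cells. Endothelial markers had 33.9 and 22.1 CPM (-0.17 without deep cells) and haematopoietic markers 3.09 and 4.41 CPM (-0.03). These rest on 22 and 25 UMIs for the endothelial and on 2 and 5 UMIs for the haematopoietic markers.

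**Figure D2:**
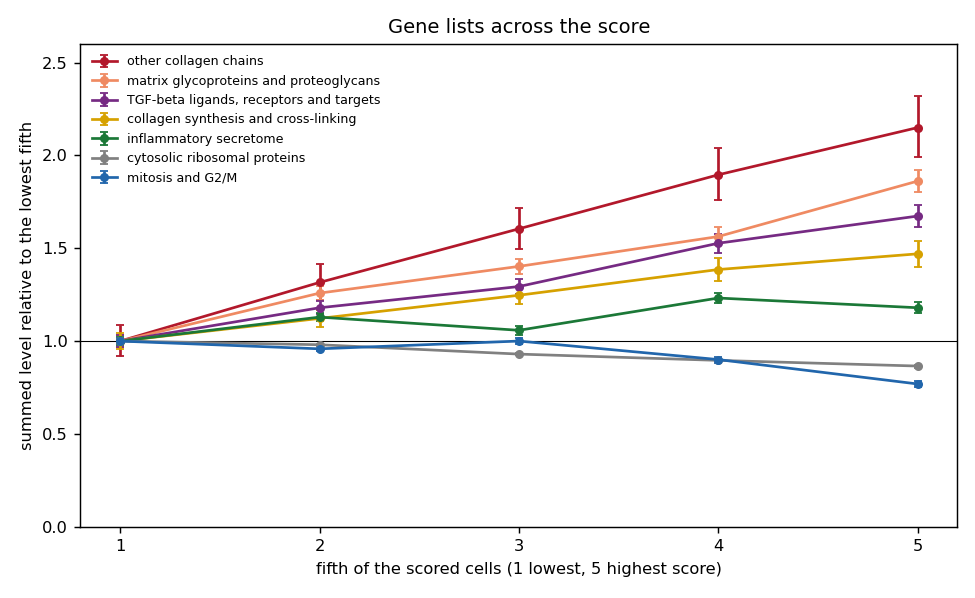
Summed level of 7 gene lists (y axis) in 5 equal parts of the 1802 cells ordered by score (x axis), relative to the part of lowest score, with exact 95% Poisson intervals. Other collagen chains, matrix glycoproteins, TGF-β genes and collagen synthesis genes are higher in each part than in the one before, mitotic genes are lower in the upper 2 parts, and the inflammatory secretome goes up and down.

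Over 5 equal parts of the cells ordered by score, the other collagen chains had 481, 633, 772, 912 and 1034 CPM, and the matrix glycoproteins had 3283, 4131, 4604, 5131 and 6111 CPM. The mitotic genes had 16771, 16072 and 16774 CPM in the lower 3 parts and 15103 and 12899 CPM in the upper 2. The other collagen chains and the matrix glycoproteins were thus graded over the whole range, whereas the mitotic genes were lower in the upper 2 parts. Not every matrix list rose at each step. Matrix proteases and inhibitors had 22047, 24014, 23720, 24767 and 22945 CPM, and the integrins and collagen receptors did not rise at each step either.

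Transcript length moved with the ratios. Over 2003 genes with a GENCODE length, the Spearman correlation of ratio and length was 0.36, given as a description across genes of the same libraries. The median log2 ratio was -0.30 for the shortest 25% of the genes (median 1248 bases), -0.09 and 0.07 for the next, and 0.18 for the longest (median 7063 bases). The score genes have transcripts of 3461 to 12071 bases. With the median ratio of 20 length bins removed, the other collagen chains were at 0.96, the matrix glycoproteins at 0.86, the secretome at 0.46 and the mitotic genes at -0.43, while ribosomal protein genes were at -0.02. The part of length in these results was not tested. With each cell thinned to 1000 UMIs, the median number of detected genes was 734 in collagen-high and 735 in collagen-low cells.

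In each of 16 other settings for the choice of cells, the sums or the calls, 23 of the higher genes and 15 of the lower genes were again at least 1.5-fold apart and at the level minimum of that setting. The setting without a minimum was not counted, and a gene such as PLAT that stayed past 1.5-fold but under the minimum in some setting is not among them. Among the 23, named after their values were seen, were COL7A1, FN1, TGFBI, THBS1, LOXL2, SERPINH1, QSOX1, SDC1, ITGA5, CDH2, WNT5A, IL6, VEGFA, TPM1, TUBA1A, TWIST2, RCAN1, TNIP1, MCM6, GPAM, MAP7D1 and WFDC21P. The first 8 are grouped as genes of matrix proteins, their chaperone or modifying enzymes, and a heparan sulfate proteoglycan of the cell surface. This order was made after the genes were seen, and the share of matrix genes among all tested genes was not compared. The 15 lower genes were AURKA, CKAP2, PTTG1, H2AFZ, HIST1H4C, HMGB3, HAS2, HSPE1, MDH1, BOLA3, LSM5, SNAPC1, CNIH4, ATP6V1G1 and VPS26A. AURKA, a mitotic kinase, had 122 and 304 CPM (-1.31) and HAS2, a hyaluronan synthase, 194 and 404 CPM (-1.05).

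The same rule was applied to the coculture library, whose cells had no part in the choice above. Of 1432 coculture cells with at least 1000 UMIs, 996 were HS-5 cells by their line-specific genes, 379 were MM.1S cells and 57 were mixed and left out. Its 200 highest cells had scores of 0.598 to 2.00% and its 200 lowest of 0 to 0.179%. Of 2000 genes of at least 100 CPM there, 156 (7.80%) were at least 1.5-fold higher and 151 (7.55%) lower in the high cells. Among the 171 genes higher in the monoculture, 135 reached 100 CPM in the coculture, 124 of these lay above 0 and 65 (48.1%) were at least 1.5-fold higher, against 6.95% of the 1784 genes read in both libraries. Among the 322 lower genes, 313 reached it, 283 lay below 0 and 71 (22.7%) were at least 1.5-fold lower, a smaller share than for the higher genes. Of all 1784 genes read in both libraries, 812 lay above 0 and 972 below 0 in the coculture. The Pearson correlation of the ratios across these 1784 genes was 0.65, a description over genes that share the 7-gene rule, the line and the protocol.

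**Figure D3:**
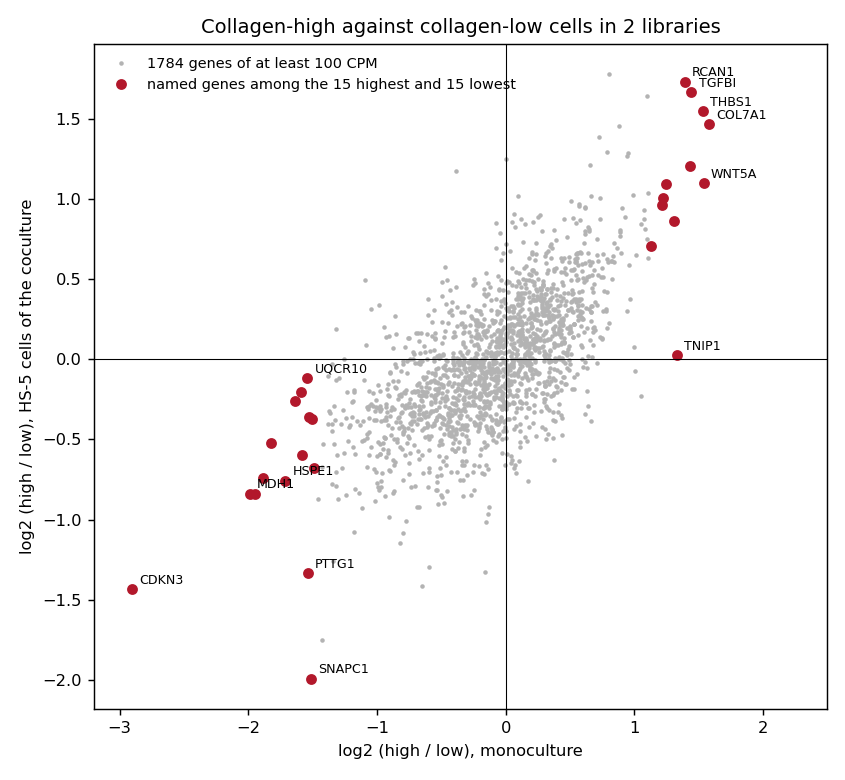
Log2 ratio of high over low cells in the monoculture (x axis) and in HS-5 cells of the coculture (y axis), 1 point per gene of at least 100 CPM in both. RCAN1, TGFBI, THBS1 and COL7A1 lie at the upper right and SNAPC1, CDKN3 and PTTG1 at the lower left, TNIP1 lies near 0 in the coculture, and many of the genes lower in the monoculture, such as UQCR10, lie closer to 0 in the coculture.

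The sums of several matrix lists were close in both libraries. The other collagen chains were at 1.13 (0.86 to 1.40) in the coculture, matrix glycoproteins at 0.88, TGF-β genes at 0.67, collagen synthesis genes at 0.61 and the secretome at 0.22. The median matrix glycoprotein was lower there, at 0.47 against 0.87 in the monoculture, LTBP1 was at -0.01, and the matrix proteases were at -0.11. COL7A1 was at 1.46, THBS1 at 1.55, TGFBI at 1.67 and RCAN1 at 1.73. Mitotic genes were at -0.46, with SNAPC1 at -1.99, CDKN3 at -1.43 and PTTG1 at -1.33, and S phase genes were at 0.47. Mitochondrially encoded genes (-0.08) and ribosomal protein genes (-0.10) were closer to 0 than in the monoculture. TNIP1 (0.02, -0.64 to 0.68) and PTGS2 (-0.23, -0.90 to 0.41), both over 1 in the monoculture, were not apart in the coculture beyond counting error.

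Thinned to 1000 UMIs, HS-5 cells of the coculture had a score of 0.405% and those of the monoculture 0.421%, a log2 ratio of -0.06 (-0.11 to -0.00). A share of 17.5% of the coculture cells (15.2 to 19.97%) and 18.9% of the monoculture cells (17.1 to 20.8%) reached the monoculture's upper threshold. The composition of the score differed more than its size. COL1A2 (0.37, 0.22 to 0.53) and COL1A1 (0.25, 0.10 to 0.40) were higher in the coculture, while KCNMA1 (-0.41), COL16A1 (-0.35), COL6A1 (-0.17) and COL6A2 (-0.16) were lower and SERPINE2 (-0.03) was within counting error. With 1 library per condition, the coculture and the library cannot be told apart in these values.

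The HS-5 monoculture held 6143448 UMIs with a median of 949 per barcode, the coculture 3981392 with 789, and the MM.1S monoculture 10433182 with 2183. The HS-5 monoculture shared 76 barcodes with the coculture and 44 with the MM.1S monoculture, and 0 of the collagen-high cells had a shared barcode.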

How the data were processed

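The authors deposited whole-number UMI counts per gene and barcode, not normalized, 1 table per library. The submitters' processing notes name GRCh38, Cell Ranger 3.0.2, UMI-tools 1.0.0, STAR 2.5.3a, featureCounts 1.6.4 and SAMtools 1.9, without their order, and the paper names Seurat for its own analyses. Members and gene lists were chosen with earlier results of these data known.

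Cells with at least 1000 UMIs were scored, and UMIs of the top and bottom 20% were summed and scaled to CPM (Python 3.11.15, numpy 2.4.6, scipy 1.17.1). Genes were called at a fold of 1.5 and a mean of 100 CPM (lists: 50 CPM). The rule for named genes took the 15 genes of highest and of lowest ratio, and from each of 26 lists the 3 members at either end; 1 gene it picks is not reported here. Intervals are exact Poisson for CPM, exact conditional binomial for ratios and Clopper-Pearson for shares. Over all 6143448 UMIs of the HS-5 monoculture, 3 counts are worth 0.488 CPM. The collagen-high cells held 653386 and the collagen-low cells 1134964 UMIs, so 3 counts are worth more CPM in each group. Coculture cells counted as HS-5 at a share over 0.8 of line-specific UMIs and as MM.1S under 0.2. Doublets within a line were not removed. Lengths come from GENCODE 29 and start-site sequences from RefSeq (GRCh38.p14). The steps were checked on simulated counts.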

Additional observations from a re-analysis of the deposited data

Results flagged for a closer look

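Several values pointed to opposite sides in the monoculture and in the HS-5 cells of the coculture, with both counting intervals clear of 0. ITGB1 was at -0.33 in the monoculture and at 0.29 (0.02 to 0.56) in the coculture. SOD2 was at -0.17 and 0.40 (0.22 to 0.59), and CENPF at 0.11 and -0.45 (-0.72 to -0.18). Interferon response genes summed to -0.33 and 0.16, and matrix proteases and inhibitors to 0.07 and -0.11. With 1 library each, the difference between the libraries was not tested. Without deep cells, the monoculture values of ITGB1 (0.20), SOD2 (0.36), CENPF (-0.38), the interferon list (0.09) and the protease list (-0.09) had the sign of the coculture.

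The 1713 HS-5 barcodes with 500 UMIs or more but under 1000, which were not scored, had 0.477% of their UMIs on the 7 genes when thinned to 500 UMIs (0.463 to 0.492%), against 0.450% over all 3515 barcodes of at least 500 UMIs and 0.00543% in MM.1S cells thinned to 1000 UMIs.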

How the results depend on the processing

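No paired analysis was possible because each condition is 1 library and the labels carry no replicate numbers, and no replicate could be left out. The 171 higher and 322 lower genes became 59 and 65 with each cell thinned to 1000 UMIs, 83 and 150 with cells ranked within bins of UMI count, 76 and 110 by the mean rank of the 7 genes, 92 and 109 within limits on detected genes and mitochondrial share, 73 and 118 with equal weight per cell, 398 and 560 at 50 CPM, 6621 and 8881 with no minimum level, and 62 and 82 without deep cells. The thinned setting compared 483 with 534 cells because of ties in the score. Median-of-ratios scaling gave 121 and 381, which moved the higher share of the calls from 34.7% to 24.1%.

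The other collagen chains (1.12) were at 0.82 with thinned cells, 1.47 for the top and bottom 10%, 0.82 by mean rank, 0.77 within the gene and mitochondrial limits, 0.82 with equal weight and 0.75 without deep cells. Collagen synthesis genes (0.56) were at 0.43 with thinned cells, 0.68 for the 10% ends, 0.45 on the UMIs that did not choose the cells, 0.46 with equal weight and 0.46 without deep cells. The secretome (0.25) was at 0.16 with thinned cells, 0.32 at 2000 UMIs, 0.10 on the other UMIs, 0.19 with equal weight, 0.17 by median of ratios, 0.19 without deep cells, 0.46 without the length trend and 0.36 with only the collagen chains scored. The summed higher genes in the coculture (0.61) were at 0.55 from 500 UMIs. None of these values changed sign. Among named values past 1.5-fold, signs turned for TMEM38B (0.30 within the gene and mitochondrial limits), the integrin gene ITGB5 (-0.17 with only the collagen chains scored), BIRC2 (0.049 at 2000 UMIs), SLC1A5 (-0.038 with thinned cells), ISG20 (0.14 by mean rank, 0.020 without deep cells) and the endothelial markers (-0.27 within the gene and mitochondrial limits, -0.17 without deep cells). Smaller values also turned, such as those of PLIN2, the adipocyte markers and the osteolineage markers. The settings without deep cells, without the length trend, with only the collagen chains scored and with the minimum set on the cells between were chosen after seeing the data. The cause of these changes was not tested, and levels under 50 CPM rest on few UMIs.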
